A study of Mus musculus with 67 samples.

Results

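The striatum of old and young adult C57BL/6 mice kept on caloric restriction (CR) was compared. The comparison holds 17 of the 67 mice measured in this tissue, chosen by their labelled diet and age: 8 old CR mice of 673 to 743 days and 9 young CR mice of 174 to 194 days. The old mice were 5 females of 703 to 743 days and 3 males that were all 673 days old, and the young mice were 5 females of 174 to 194 days and 4 males of 177 to 194 days. All 17 mice ate regular feed freely until they were 13 weeks old, and fortified feed was then lowered in steps to 60%. The age groups therefore differ in their time on reduced feed as well as in age: the young mice had spent 83 to 103 days on it and the old mice 582 to 652 days. These 2 quantities cannot be told apart here. Among the old mice, sex and exact age cannot be told apart either. The old and young mice fed ad libitum (AL) were 10 of 704 to 743 days and 10 of 169 to 194 days. They and 10 middle-aged CR mice of 472 to 499 days are set beside the old and young CR mice for the same features. Together with middle-aged AL mice of 476 to 499 days they also entered the main model. In it all 57 adult mice shared 1 estimate of spread and the filter on mean score described below. The labels name no transgene or other agent, and each array came from 1 mouse.

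Caloric restriction lowers energy intake without malnutrition and is the best studied dietary means of extending lifespan in rodents. The striatum is the input stage of the basal ganglia. It is built mostly of GABAergic projection neurons that receive dopamine from the midbrain, with smaller numbers of interneurons and with astrocytes, oligodendrocytes, microglia and vessels around them. Brain aging is commonly described in terms of glial and immune activation, lysosomal load, myelin upkeep, mitochondrial function and protein turnover, and these gene groups were therefore followed here.

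The measurement is a score. The authors converted each array, a nylon filter of spotted mouse cDNA clones (features), to Z scores, so that a feature's score is its distance from the mean of its own array in units of the SD over the features of that array. Differences are given in these Z units, old minus young CR mice with both sexes weighted equally, and they are not fold changes. Such a score shows a gene's standing within its array and cannot show a shift shared by all genes. In whole tissue, fewer cells of a type and less RNA per cell cannot be told apart.

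The arrays set the precision of the comparison. Among 15 of the 17 arrays, the correlation between arrays had a median of 0.98. The remaining 2, young CR female replicate 4 and old CR male replicate 3, correlated with those 15 at a median of 0.922 and with each other at 0.984. They belong to 8 arrays of the series that share this different profile. Of these, juvenile AL male replicate 3 entered no fit, so that fits without the 8 arrays left out only the adult ones among them. In addition, scores deviated together in the listed order of features: within an array, deviations from the group means correlated at a median r of 0.501 between features 22 places apart, as in a grid with rows of 22 spots. Values without the 8 arrays, and values after subtracting the median deviation of the 8 nearest features in the same column of that grid (grid correction), are given beside results that they move. With 3 old males and both sexes weighted equally, a single old male also weighs heavily, and values without it are given where it moves a result. Where that male is old CR male replicate 3, young CR female replicate 4 of the same profile stays among the young mice, so such values are not balanced for the profile. The part of these in the results was not tested otherwise.

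The tissue label was checked against marker genes. Of 30 markers of striatal projection neurons, 8 were measured and 6 had a mean score above 0 over the 17 mice. The highest was Ppp1r1b (DARPP-32, the dopamine-regulated phosphatase inhibitor of these neurons), at 0.58 in its highest feature. The remaining 22 markers of that list, the dopamine receptors included, had no feature with a single gene symbol and were not analysed here.

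No gene passed the test between old and young CR mice. Of 4257 features tested, 0 (0%) reached an adjusted p of 0.05 in limma, and the smallest adjusted p was 0.98. At an unadjusted p under 0.05 there were 6 features (0.141%), 4 of them higher (0.094%) and 2 lower (0.047%) in old mice. If the p-values were spread evenly, 212.85 features would lie under that level. Differences ran from -0.219 to 0.324 with a median of -0.000833 and an SD of 0.066, and 49.5% of features were above 0. The median SE was 0.0798, so that a feature of median precision needed a difference of 0.16 to reach an unadjusted p of 0.05. For no feature did the 8 old and 9 young mice separate without overlap (0% in either direction). The genes below are therefore those with the smallest unadjusted p in each direction, 12 a direction. Each of these 24 had an adjusted p of 0.98, and their values are given as measured, with no call.

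Snrpe, which encodes a core Sm protein of the spliceosomal small nuclear ribonucleoproteins, had the smallest unadjusted p. Its scores (feature 15846) were 2.02, 2.31 and 2.46 in old males and 2.20, 2.24, 2.28, 2.33 and 2.36 in old females. They were 1.82, 2.00, 2.15 and 2.36 in young males and 1.75, 2.17, 2.21, 2.25 and 2.30 in young females. The lowest old mouse thus lay inside the range of the young mice, and 7 of 8 old mice lay above the young median. The difference was 0.163 ± 0.0665 (SE; limma, unadjusted p = 0.0176), and the exact permutation test within sexes over the 17 mice gave unadjusted p = 0.11. Without the 8 arrays it was 0.129 ± 0.0676 (unadjusted p = 0.0637), and after grid correction 0.178 ± 0.148 (unadjusted p = 0.236).

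Atxn1l, a relative of ataxin-1 that binds the transcriptional repressor Capicua, was the only feature that met the first steps of the rule of the study's methods (Z-ratio beyond 1.5, unadjusted p under 0.05 in a linear model of the 17 arrays and positive mean score; 1 of 4292 features, 0.0233%). The variance analysis by age, sex and diet that follows them in the methods was not run here. Its Z-ratio, the difference over the SD of all differences, was 2.24 at unadjusted p = 0.0248, and the adjusted p of that model was 0.997. The scores were 0.31, 0.40 and 0.67 in old males, 0.16, 0.24, 0.31, 0.32 and 0.38 in old females, 0.02, 0.24, 0.24 and 0.28 in young males, and 0.11, 0.13, 0.24, 0.30 and 0.40 in young females. The highest value, 0.67, came from old CR male replicate 3, an array of different profile, and the groups overlapped. The difference was 0.156 ± 0.0694 (unadjusted p = 0.0295; exact permutation p = 0.0325), and it was 0.124 ± 0.0523 without the 8 arrays. All 8 neighbors in the grid were also higher in old mice, by a median of 0.0617, and after grid correction the difference was 0.105 ± 0.0379 (unadjusted p = 0.00809).

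Dbi encodes the acyl-CoA binding protein, also known as diazepam binding inhibitor, whose peptides act on GABA-A receptors. Old males scored 0.67, 0.73 and 0.79 and old females 0.48, 0.62, 0.65, 0.66 and 0.71, against 0.56, 0.59, 0.62 and 0.67 in young males and 0.47, 0.50, 0.50, 0.64 and 0.66 in young females. Again 7 of 8 old mice lay above the young median and 1 old female lay near the bottom of the young range. The difference was 0.095 ± 0.044 (unadjusted p = 0.0356; exact permutation p = 0.0215), and neither sex carried it alone, with 0.12 in males and 0.07 in females. Without the 8 arrays it was 0.121 (unadjusted p = 0.00976), and after grid correction 0.0711 ± 0.0478 (unadjusted p = 0.143).

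**Figure D1:**
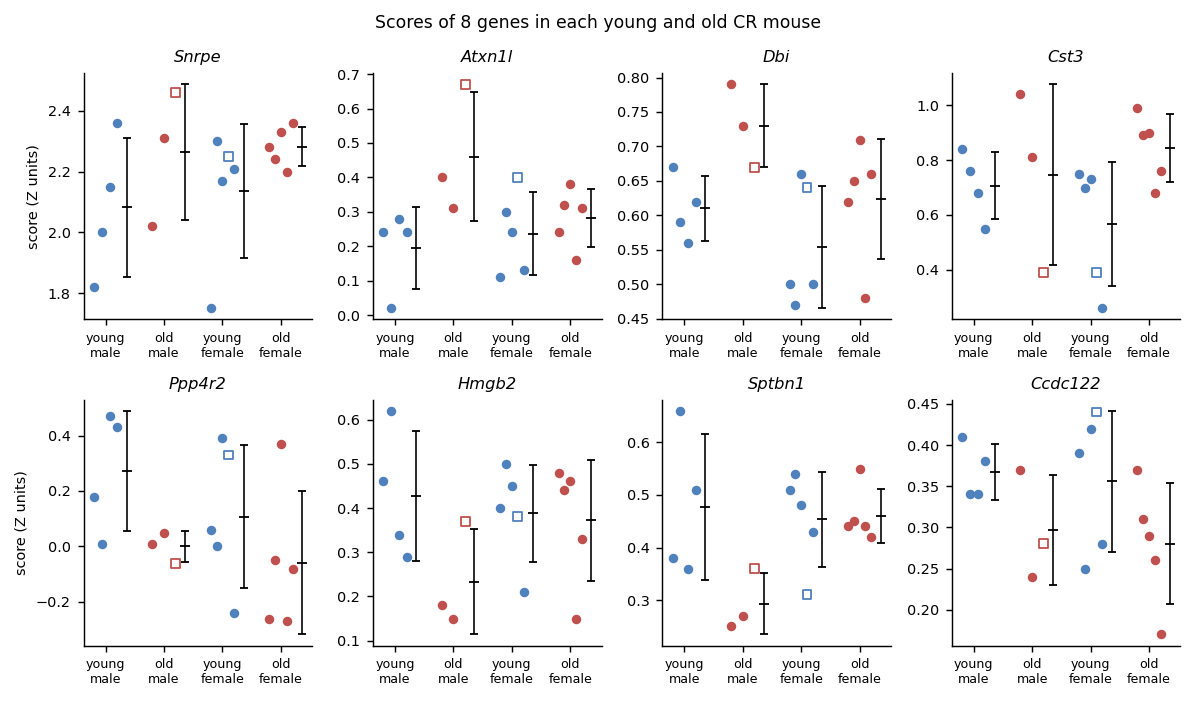
Scores (vertical axes, Z units) of Snrpe, Atxn1l, Dbi and Cst3 in the upper row and Ppp4r2, Hmgb2, Sptbn1 and Ccdc122 in the lower row in each CR mouse, by age and sex. Points are mice, open squares mark the 2 arrays of different profile, and bars give the mean ± SD of 4 young males, 3 old males, 5 young females and 5 old females. For each of the 8 genes old and young mice overlap, and for Atxn1l the highest old mouse, at 0.67, is an open square.

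The other genes with higher scores in old mice fell into secreted and surface proteins, enzymes and nuclear proteins. Among the first were Tnc (tenascin C, a matrix glycoprotein), Ptn (pleiotrophin, a heparin-binding growth factor) and Gpr22 (an orphan G protein-coupled receptor). Tnc had a median of 2.27 (2.22 to 2.46) in old mice and 2.23 (2.11 to 2.39) in young mice, a difference of 0.0892 ± 0.0428 (unadjusted p = 0.0422). Gpr22 had a median of 2.08 (2.02 to 2.38) against 2.02 (1.93 to 2.14), and 7 of 8 old mice lay above the young median. Ptn had a median of 1.76 (1.65 to 1.93) against 1.70 (1.55 to 1.83). For these 3 genes the highest old score was again that of old CR male replicate 3, and the differences without the 8 arrays were 0.054 for Tnc, 0.0597 for Gpr22 and 0.0545 for Ptn. After grid correction they were 0.0209 ± 0.0376 (unadjusted p = 0.582) for Tnc, 0.0507 for Gpr22 and 0.035 for Ptn. With all mice the male differences were 0.168 for Tnc, 0.204 for Gpr22 and 0.153 for Ptn. The female differences were 0.01, 0.004 and -0.006.

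The enzymes were Pomk (protein O-mannose kinase, which acts on the glycan of dystroglycan), Ip6k2 (an inositol hexakisphosphate kinase) and Gmds (GDP-mannose dehydratase, the first step of GDP-fucose synthesis), with differences of 0.0911, 0.0996 and 0.0992. That of Pomk was 0.194 in males and -0.012 in females. That of Ip6k2 was 0.0487 without old CR male replicate 3. Gmds kept the lowest p of the 3 without the 8 arrays, at 0.112 (unadjusted p = 0.0109), and had a difference of 0.0524 after grid correction (unadjusted p = 0.0322). The nuclear proteins were Mbnl1 (muscleblind-like 1, a splicing regulator) with a difference of 0.11 and Smarcb1 (a core subunit of SWI/SNF chromatin remodelers) with 0.116. The 2 features of Smarcb1 disagreed, since the second one differed by -0.0355 ± 0.111. The first was 0.0565 without old CR male replicate 3 alone and 0.0825 without the 8 arrays. Bsdc1 had a difference of 0.103 that rested on 1 mouse: old CR male replicate 1 scored 0.61, the next old mouse 0.19, and without that mouse the difference was 0.0005. Mbnl1 rested in a like way on young CR male replicate 2, which scored -0.04 against 0.31 in the next young mouse, and was 0.0547 without it. With all mice Mbnl1 differed by 0.223 in males and -0.004 in females.

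Ppp4r2, a regulatory subunit of protein phosphatase 4, had the lowest difference with age among all features tested. Old males scored -0.06, 0.01 and 0.05 and old females -0.27, -0.26, -0.08, -0.05 and 0.37. Young males scored 0.01, 0.18, 0.43 and 0.47 and young females -0.24, 0.00, 0.06, 0.33 and 0.39. Thus 7 of 8 old mice lay below the young median while 1 old female lay among the highest young mice. The difference was -0.219 ± 0.104 (unadjusted p = 0.0408; exact permutation p = 0.0552). Its 8 neighbors in the grid were all lower in old mice, by a median of -0.105, and the difference was -0.108 (unadjusted p = 0.288) after grid correction. A second Ppp4r2 feature, whose mean score was below 0, differed by -0.0773 ± 0.0892.

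Hmgb2 (a high mobility group protein that bends DNA), Cenpl (a centromere protein) and Ncaph (a condensin subunit) were also among the genes with lower scores. Hmgb2 had a median of 0.35 (0.15 to 0.48) in old and 0.40 (0.21 to 0.62) in young mice. Its difference was -0.105 ± 0.0555 (unadjusted p = 0.064), and both corrections lowered the p, to 0.0274 without the 8 arrays (-0.14) and to 0.0112 after grid correction (-0.0684). With all mice the difference was -0.194 in males and -0.016 in females, and 7 of 8 neighbors in the grid were lower too. Cenpl had medians of 0.89 and 0.93, and its difference of -0.0717 was -0.101 (unadjusted p = 0.0169) without the 8 arrays. However, leaving out old CR male replicate 1 alone brought Cenpl to -0.0325. Ncaph had medians of 0.795 and 1.04 and a difference of -0.201, and all 8 neighbors in the grid were lower in old mice. Without old CR male replicate 3, which scored 0.09 where the next old mouse scored 0.60, the difference was -0.0617. The lowest young score of Ncaph, 0.46, belonged to young CR female replicate 4, and without the 8 arrays the difference was -0.112. After grid correction it was -0.0556.

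Sptbn1, the beta-II spectrin of the membrane skeleton, had scores of 0.25, 0.27 and 0.36 in old males and 0.36, 0.38, 0.51 and 0.66 in young males, so that males overlapped at a single value. Old females scored 0.42, 0.44, 0.44, 0.45 and 0.55 and young females 0.31, 0.43, 0.48, 0.51 and 0.54. The male difference was -0.184 ± 0.074 (unadjusted p = 0.0162) and the female difference 0.006 ± 0.0613, and the test of the difference between the sexes gave an unadjusted p of 0.0534. After grid correction the difference over both sexes was -0.0518. A second feature of Sptbn1 differed by -0.0167 ± 0.0456. Ccdc122, which encodes a coiled-coil protein, was the gene among the 24 for which all 8 old mice lay below the young median. Its medians were 0.285 (0.17 to 0.37) in old and 0.38 (0.25 to 0.44) in young mice, its difference -0.0734 ± 0.0428 (unadjusted p = 0.0923; exact permutation p = 0.0342), and its values in the sexes nearly equal at -0.0708 and -0.076. However, 6 of its 8 neighbors in the grid were lower too, and after grid correction the difference was -0.0203 ± 0.0304 (unadjusted p = 0.507).

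Akap8l (an A-kinase anchoring protein relative) and Psd3 (an exchange factor for the small GTPase Arf6) both differed by -0.17, with 7 of 8 old mice below the young median for Psd3 and 6 of 8 for Akap8l. After grid correction they were -0.109 for Psd3 and -0.102 for Akap8l. In the grid, 7 of 8 neighbors of Psd3 and all 8 of Akap8l were lower too. The last 4 genes were Avpr1a (a vasopressin receptor), Zfp354a (a zinc finger protein), Tcea3 (a transcription elongation factor) and Flvcr2 (a membrane transporter), with differences of -0.116, -0.157, -0.09 and -0.123. For each of these 4, all 8 neighbors in the grid were lower in old mice, by medians between -0.158 and -0.11. After grid correction the difference of Avpr1a was -0.00121, and those of Zfp354a, Tcea3 and Flvcr2 were 0.00988, 0.023 and 0.019. Over the 12 genes with lower scores the neighbors had the same sign for 12, and over the 12 with higher scores for 9. The values of Avpr1a, Zfp354a, Tcea3 and Flvcr2 thus could not be told apart from those of the features around them. These 4 genes and Ppp4r2, Psd3, Akap8l and Ncaph all have feature numbers from 14396 to 14550 in the listed order. Hmgb2 (8697) and Cenpl (8700) also lie close together. Scores deviate together in that order, so these genes are not independent observations.

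Glial and immune markers were too few on this filter to describe whole cell types. Of 26 astrocyte markers 9 were measured and 6 tested, of 34 microglial, complement and immune markers 11 and 5, of 28 myelin markers 5 and 3, and of 22 endothelial and pericyte markers 5 and 3. None of these genes reached an adjusted p of 0.05. Averaged over a gene's features, 2 astrocyte genes were higher and 4 lower, with a median difference of -0.014. The immune list had 3 higher and 2 lower (median 0.0223), the myelin list 1 and 2 (median -0.0472), and the endothelial list 2 and 1 (median 0.00458). Over all 2159 genes tested, 1114 were higher and the median was 0.00283. The mean score of the astrocyte genes ran from 0.512 to 0.94 in old mice and from 0.497 to 0.84 in young mice, and that of the immune genes from 0.666 to 0.938 and from 0.656 to 0.882, so that the age groups overlapped for both.

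Cst3 encodes cystatin C, a secreted inhibitor of cysteine proteases that is abundant in astrocytes and microglia. It scored 0.39, 0.81 and 1.04 in old males and 0.68, 0.76, 0.89, 0.90 and 0.99 in old females, against 0.55, 0.68, 0.76 and 0.84 in young males and 0.26, 0.39, 0.70, 0.73 and 0.75 in young females. Of the old females, 4 lay above every young female. The 0.39 of the old males was old CR male replicate 3, and the 0.39 of the young females was young CR female replicate 4, the 2 arrays of different profile. The difference was 0.159 ± 0.104 (unadjusted p = 0.135) with all mice, 0.226 (unadjusted p = 0.00319) without the 8 arrays and 0.171 (unadjusted p = 0.0187) after grid correction. Its adjusted p stayed at 0.996 or above in the latter fits of all features. Leaving out old CR male replicate 1 alone, which scored 1.04, gave 0.0852, and leaving out old CR male replicate 3 alone gave 0.248. The neighbors of Cst3 in the grid differed by a median of 0.00371, 4 of 8 of them upward.

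Ctsd, the lysosomal protease cathepsin D, scored 0.34, 0.66 and 0.73 in old males and 0.44, 0.48, 0.66, 0.66 and 0.66 in old females. Young males scored 0.39, 0.62, 0.64 and 0.65 and young females 0.26, 0.39, 0.43, 0.46 and 0.68. The difference was 0.0688 ± 0.0636 (unadjusted p = 0.285), with 0.136 in females and 0.00167 in males, and a second feature of the gene gave 0.0739 ± 0.0593. Without old CR male replicate 2 the first was 0.0305. The lysosome and autophagy list as a whole had 4 of its 6 tested genes higher, with a median of 0.0139. Lamp1, a membrane protein of lysosomes, had 7 of 8 old mice above the young median and a difference of 0.0982 ± 0.0838, but without old CR male replicate 3 the difference was 0.0065. With a term for the 8 arrays in the model it was 0.0725. Among the immune genes C1qc (complement C1q, C chain) differed by 0.0236 ± 0.0429 and Fcer1g (the Fc receptor gamma chain) by -0.187 ± 0.113, all 6 listed neighbors of Fcer1g being lower too. Fcer1g differed by -0.0727 after grid correction and by -0.0918 without old CR male replicate 1.

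Markers of the striatal projection neurons were lower in 4 of 6 tested genes, with a median of -0.0383. Ppp1r1b differed by -0.154 ± 0.113 (unadjusted p = 0.18; the feature of smallest p), with medians of 0.565 (0.11 to 0.86) in old and 0.72 (0.10 to 0.89) in young mice. Without old CR male replicate 3 alone it was -0.0855, without the 8 arrays -0.15 and after grid correction -0.0951. Rasd2 (Rhes, a striatum-enriched small GTPase) differed by -0.0929 ± 0.0581 (unadjusted p = 0.116), and its difference was -0.126 (unadjusted p = 0.0427) without the 8 arrays, but -0.0263 without old CR male replicate 2 alone. Astrocytic Gja1 (connexin 43) differed by -0.0362 ± 0.051. Cryab, a small heat shock protein found in oligodendrocytes, differed by 0.094 ± 0.113, and the highest score in either age group, 0.82 in young and 0.67 in old mice, belonged to an array of different profile. Without old CR male replicate 3 alone Cryab differed by -0.001, but without the 8 arrays by 0.0825.

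**Figure D2:**
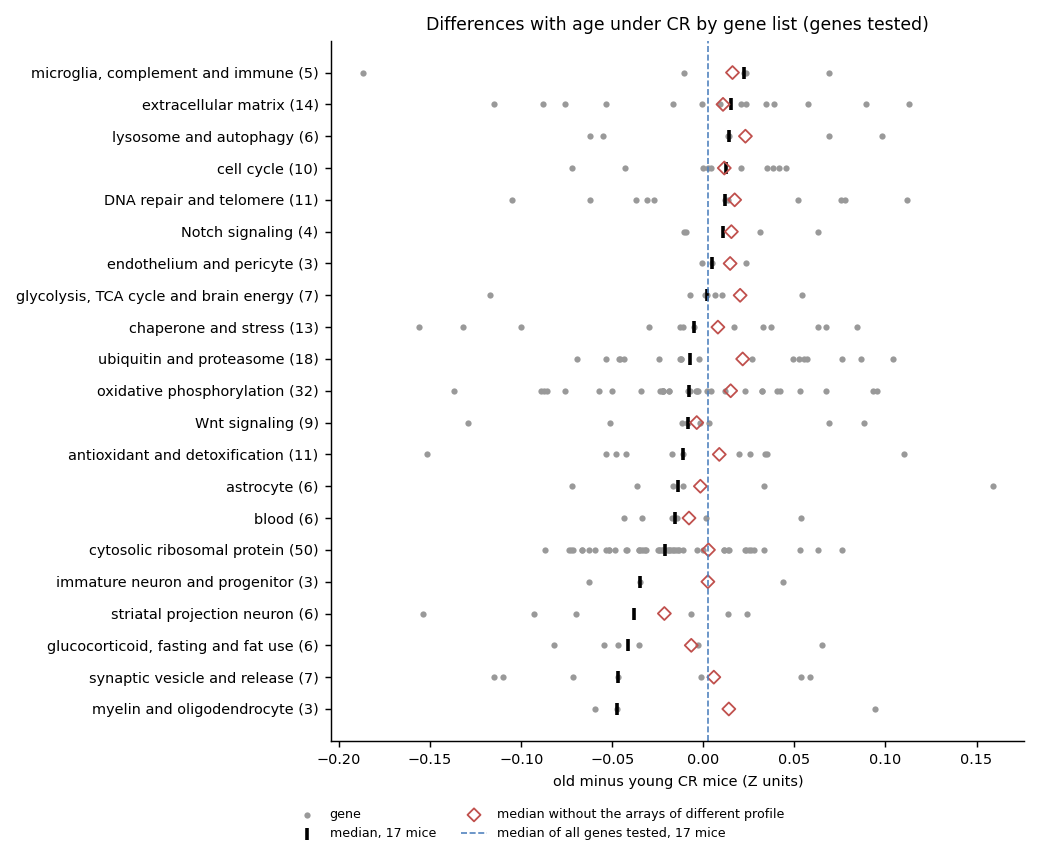
Old minus young difference in CR mice (horizontal axis, Z units) for each gene (gray points) of the gene lists with at least 3 tested genes, with the number of genes tested after each name. Black marks are list medians over 17 mice, open diamonds the medians without the arrays of different profile, and the dashed line the median of all genes tested, 0.00283. The black mark of the 50 ribosomal protein genes lies at -0.021 and its diamond at 0.00281.

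The largest list was the cytosolic ribosomal proteins, whose genes have near-identical pseudogenes that a cDNA spot may not separate. Of 50 tested genes 13 were higher and 37 lower in old mice, with a median of -0.021 and differences from -0.0872 to 0.0761, and 0 passed the test. In males 16 of 50 were higher (median -0.0651) and in females 30 of 50 (median 0.015). Without the 8 arrays 27 of 50 were higher and the median was 0.00281. Rpl38 differed by 0.0963 ± 0.0855 and, without old CR male replicate 3, by 0.013. The 3 tested features of Rpl4 disagreed in sign, the one with the smallest p at 0.0605 ± 0.056 and the others at -0.0285 and -0.0886, and without old CR male replicate 1 the first was 0.028.

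Lists of energy metabolism and of protein turnover had medians between -0.00792 and 0.002. Of 32 oxidative phosphorylation genes 12 were higher (median -0.00792). In that list Atp5md, a small subunit of ATP synthase, had 7 of 8 old mice above the young median and a difference of 0.107 ± 0.0751, and Uqcrb, a subunit of complex III, differed by -0.0876 ± 0.0592. Without old CR male replicate 3 these were 0.045 and -0.0168, and without the 8 arrays 0.075 and -0.0255. A second feature of Atp5md differed by -0.0423 ± 0.093. Of 7 genes of glycolysis and the TCA cycle 5 were higher (median 0.002). Of 18 ubiquitin and proteasome genes 8 were higher (median -0.00717) and of 13 chaperone and stress genes 6 (median -0.00492). Pdia3 (a protein disulfide isomerase of the endoplasmic reticulum) was an example of the latter: no old mouse lay above the young median and its difference was -0.156 ± 0.137. Old CR male replicate 3 scored -0.11 where the next old mouse scored 0.50, and without it alone the difference was -0.0315. The lowest young score, 0.04, belonged to young CR female replicate 4, and without the 8 arrays the difference was -0.1. Cct7, a chaperonin subunit, differed by -0.132 ± 0.108 (exact permutation p = 0.0536) and by -0.075 after grid correction.

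Stress defense and nutrient response genes were followed by 2 lists. Of 11 antioxidant and detoxification genes 5 were higher (median -0.0112), with 0.11 ± 0.11 for Prdx2 (a peroxiredoxin) and -0.152 ± 0.103 for Gsta4 (a glutathione transferase). Without old CR male replicate 3 Prdx2 differed by 0.0128 and Gsta4 by -0.0515, and with a term for the 8 arrays by 0.0726 and -0.12. After grid correction Gsta4 differed by 0.00188. Of 6 genes of the glucocorticoid and fasting response 1 was higher (median -0.0411), and Nr3c1, the glucocorticoid receptor, differed by -0.0819 ± 0.0673 and, without the same mouse, by -0.0403. None of these passed the test.

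Signaling, DNA repair, cell cycle and matrix lists had medians between -0.00837 and 0.015. Of 9 Wnt genes 3 were higher (median -0.00837). Map3k7 (TAK1, a kinase of the TGF-beta and noncanonical Wnt pathways) had all 8 old mice above the young median of 0.19, with 0.26, 0.41 and 0.46 in old males and 0.25, 0.25, 0.30, 0.30 and 0.32 in old females. The young mice reached from 0.12 to 0.43, and the difference was 0.0883 ± 0.0615 (unadjusted p = 0.157; exact permutation p = 0.0887). Nfatc3, a calcium-regulated transcription factor, differed by -0.129 ± 0.088 and, after grid correction, by -0.074. Of 11 DNA repair and telomere genes 6 were higher (median 0.012), and Pms2, a mismatch repair gene, differed by 0.112 ± 0.0987 and, without old CR male replicate 3, by 0.0235. With a term for the 8 arrays in the model Pms2 differed by 0.0778. Of 10 cell cycle genes 7 were higher (median 0.0126). Of 14 extracellular matrix genes 8 were higher (median 0.015), with 0.106 ± 0.0901 for the Col3a1 feature of smallest p (a fibrillar collagen) and values between -0.0628 and 0.0478 for its other 3 features. That Col3a1 feature differed by 0.0217 without old CR male replicate 3.

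The remaining lists were small. Of 4 Notch genes 2 were higher (median 0.0109), of 7 synaptic vesicle genes 2 (median -0.0469), of 6 blood genes 2 (median -0.0157), of 3 genes of immature neurons 1 (median -0.0347), and of 2 general neuronal genes 0 (median -0.0358). In the synaptic vesicle list the male median was -0.186 with 2 of 7 higher and the female median 0.058 with 7 of 7 higher, and the combined median without the 8 arrays was 0.00575. The lists of choroid plexus and of lipid synthesis had 1 tested gene each, and those of cortical neurons and of immediate early genes had 0.

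Of 11 genes that the study's text singles out, 5 were measured and 4 tested. Wrn (the Werner syndrome helicase) differed by -0.0272 ± 0.052, Uchl1 (a ubiquitin hydrolase of neurons) by -0.0122 ± 0.0882, Aldh1a2 (a retinoic acid-synthesizing dehydrogenase) by -0.0112 ± 0.0672 and Hsp90aa1 (a cytosolic chaperone) by -0.00492 ± 0.0656. The list was chosen by the study partly on these samples and is not independent evidence of a direction.

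In males, 0 features (0%) passed and the smallest adjusted p was 0.708. At an unadjusted p under 0.05 there were 40 (0.94%), 26 higher (0.611%) and 14 lower (0.329%). In females, 0 (0%) passed and 6 (0.141%) lay under that level, 1 higher (0.0235%) and 5 lower (0.117%). Without young CR female replicate 5 the female count was 95, and without old CR male replicate 1 the male count was 1010. Males spread wider, with an SD of the differences of 0.154 against 0.0657 in females. The male difference was larger in size than the female one for 12 of the 12 genes with higher scores and for 9 of the 12 with lower scores. The genes were picked by the average of both sexes, in which the wider male differences weigh more. The share over all features was not computed, so these counts say nothing particular about these genes.

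The direct test of whether age differences differed between the sexes called 0 features (0%), with a smallest adjusted p of 0.747 and 53 features (1.25%) at an unadjusted p under 0.05. That count ran from 9 without young CR female replicate 4 to 499 without old CR male replicate 1. Across the 4257 features, the male and female differences correlated at r = -0.52. Features of an array are not independent, and 1 of the 3 old males and 1 of the 5 young females carried the different profile. Without the 8 arrays r was 0.0209, and the SD of the male differences was 0.078 against 0.0734 in females.

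For most named genes of the test between the sexes, the 2 arrays of different profile held extreme scores of their age groups. Fundc1 was an exception. For it, old CR male replicate 3 scored 0.15 (highest old score 0.34) and young CR female replicate 4 scored 0.14 (highest young score 0.15). Syne2 (nesprin-2, which links the nucleus to the cytoskeleton) differed by -0.332 in males and 0.096 in females, a difference of 0.428 ± 0.158 (unadjusted p = 0.00931). Old males scored 0.18 (old CR male replicate 3), 0.20 and 0.40, below the 0.46 to 0.79 of young males. Old females scored 0.43 to 0.71. The lowest young female, at 0.10 where the next scored 0.46 among all young mice, was young CR female replicate 4. Over both sexes Syne2 differed by -0.118 (unadjusted p = 0.142) with all mice. That difference was -0.145 ± 0.0533 (unadjusted p = 0.00922) without the 8 arrays and -0.0675 (unadjusted p = 0.235) after grid correction. Noct (nocturnin, a circadian enzyme) differed by -0.372 in males and 0.118 in females (unadjusted p = 0.0175). For Noct, old CR male replicate 3 scored -0.32 and young CR female replicate 4 scored -0.36, the lowest of their age groups. In the opposite direction Srfbp1 (a binding partner of serum response factor) differed by 0.263 in males and -0.072 in females, and the same 2 arrays gave the highest scores of their age groups, 1.99 and 2.02.

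**Figure D3:**
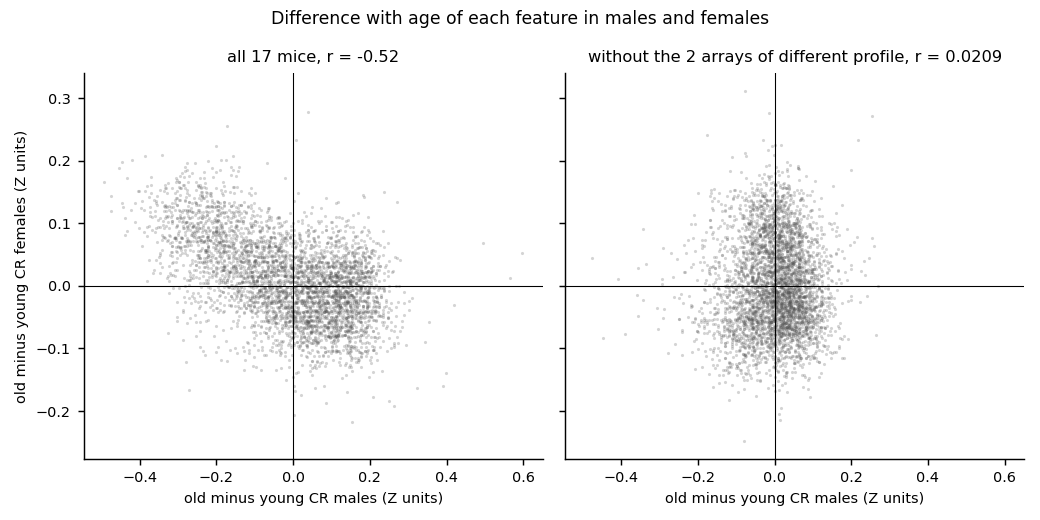
Old minus young difference of each of 4257 features in CR males (horizontal axes) and CR females (vertical axes), both in Z units, with all 17 mice (left) and without the 2 arrays of different profile among them (right). Each point is a feature; the correlation across features is -0.52 on the left and 0.0209 on the right, and the spread along the male axis is narrower on the right.

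Whether the age difference under CR departed from that under AL was tested with the 20 old and young AL mice, which share no array with the CR mice. The test called 0 features (0%), with a smallest adjusted p of 0.924. At an unadjusted p under 0.05 there were 6 features (0.141%), all 6 of them with the higher value under CR (0.141%). That count ran from 2 without young AL female replicate 3 to 109 without old CR male replicate 1. Across features the CR and AL differences correlated at r = -0.454 with all arrays and at 0.207 without the 8 arrays, of which 2 belong to the CR groups compared.

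Of the genes with the smallest p in that test, 3 are described above. Tnc differed by 0.0892 under CR and -0.034 under AL, a difference of 0.123 ± 0.0576 (unadjusted p = 0.0374), Snrpe by 0.163 and -0.013 (unadjusted p = 0.0545), and Gpr22 by 0.104 and -0.036 (unadjusted p = 0.0504). Fastk, a mitochondrial RNA-binding protein, differed by 0.0796 under CR and -0.059 under AL (unadjusted p = 0.0318), and Tgfbi, a matrix protein, by 0.0503 and -0.1 (unadjusted p = 0.0565). On the other side Ccdc30 differed by -0.0948 under CR and 0.158 under AL (unadjusted p = 0.0541), Pkig (an inhibitor of protein kinase A) by -0.101 and 0.163 (unadjusted p = 0.0779), and Igfbp4 (an insulin-like growth factor binding protein) by -0.146 and 0.074 (unadjusted p = 0.0781). Without old CR male replicate 3 the CR differences were 0.0303 for Tgfbi, -0.034 for Ccdc30 and 0.0152 for Pkig. Without the 8 arrays they were 0.0608, -0.054 and -0.0315. For Snrpe the young CR mice had the lowest of the 4 means, 2.11 ± 0.212 (SD, n = 9), against 2.28 ± 0.13 (n = 8) in old CR, 2.25 ± 0.123 (n = 10) in young AL and 2.24 ± 0.0735 (n = 10) in old AL mice.

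Several genes had the same sign under both diets. Cst3 differed by 0.277 under AL and 0.159 under CR, a difference of -0.118 ± 0.141 (unadjusted p = 0.404). The AL differences of single genes include 3 arrays of different profile: young AL male replicate 3, young AL female replicate 3 and old AL male replicate 4. Values without them are not given for single genes under AL. Ctsd differed by 0.07 under AL and 0.0688 under CR, and Dbi by 0.052 and 0.095 (test of the difference, unadjusted p = 0.471). Ppp4r2 differed by -0.157 under AL and -0.219 under CR, and Psd3 by -0.105 and -0.17. Of the 12 genes with higher scores in old CR mice 4 were also higher in old AL mice, and of the 12 with lower scores 8 were also lower. Over all 2159 genes tested, 917 were higher under AL, so these counts lie near the share over all genes and show no agreement between the diets. The ribosomal protein genes differed in count, with 13 of 50 higher under CR and 32 of 50 under AL (medians -0.021 and 0.0183); this was not tested as a list, and 5 of the 8 arrays of different profile lie among the 37 arrays of these 2 comparisons.

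The 10 middle-aged CR mice were set between the young and the old. The middle-aged mice share the young mice with one of the following comparisons and the old mice with the other. Between middle and young CR mice 0 features (0%) passed and 97 (2.28%) had an unadjusted p under 0.05, and between old and middle CR mice 0 (0%) passed and 41 (0.963%) lay under it. Of the 12 genes with higher scores in old mice the middle-aged mean lay between the young and old means for 10, and of the 12 with lower scores for 9. These genes were picked by their young and old scores in the same arrays, which favors a middle-aged mean between them. The share over all features was not computed, so the counts do not show a graded course with age.

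Where between them it lay varied by gene. For Snrpe the mean was 2.25 ± 0.101 (SD, n = 10) at middle age, so that the middle-aged mice were 0.137 above the young (unadjusted p = 0.0317) and the old mice 0.0267 above the middle-aged. Mbnl1 was 0.147 higher in middle-aged than in young mice (unadjusted p = 0.0131) and then 0.0373 lower in old than in middle-aged mice. Ncaph was 0.722 at middle age, near the old mean of 0.731, and Avpr1a 0.013, below the old mean of 0.0325, but their old minus young differences were -0.0556 and -0.00121 after grid correction. Cst3 differed by -0.0128 from young to middle age and by 0.171 from middle to old age (unadjusted p = 0.0986). Hmgb2 ran alike with -0.00575 and then -0.0993 (unadjusted p = 0.0721), as did Cenpl with -0.001 and -0.0707 (unadjusted p = 0.062). None of these steps passed the adjusted test.

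**Figure D4:**
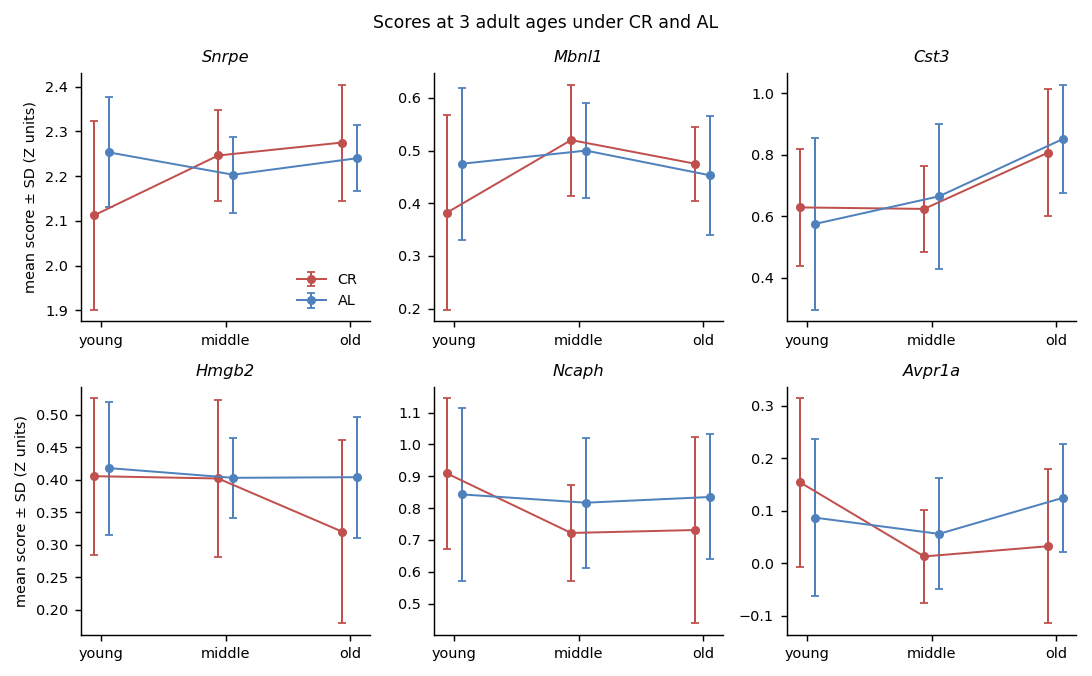
Mean score ± SD (vertical axes, Z units) of Snrpe, Mbnl1, Cst3, Hmgb2, Ncaph and Avpr1a at the 3 adult ages under CR and AL, over all mice of an age and diet. The bars overlap at every age. Cst3 under CR has means of 0.629 in young, 0.624 in middle-aged and 0.808 in old mice, while Snrpe is lower in young CR mice, at 2.11, than in the other groups.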

How the data were processed

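Total RNA from the striatum of each mouse was reverse transcribed with a radioactive nucleotide and hybridized to a nylon cDNA filter. The authors read the filters, transformed each array to Z scores and deposited these scores for 8448 features and 67 arrays. Raw intensities and how background was handled are not given in the sources used here. With arrays, the number of mice limits the precision.

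The columns of 2 old AL mice (replicate 5 of each sex) matched the other arrays only after their order was turned end to end (r of at most 0.138 as listed and at least 0.992 turned) and were turned. The CR comparison takes only the shared spread and the filter on mean score from them. Gene symbols came from the platform table, with 1 symbol for 4875 of the features.

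The main model (limma 3.58.1, R 4.3.3) held a mean for each of 12 age, diet and sex groups of 57 adult mice, and contrasts weighted the sexes equally. Testing was limited to the 4257 features whose mean score exceeded 0, with Benjamini-Hochberg adjustment over all of them at 0.05. The script was tested on simulated data. Single features were also compared by an exact two-sided permutation test of age within sex (8820 arrangements), unadjusted.

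Named genes were features with 1 symbol: the 12 with the smallest unadjusted p in each direction, up to 5 in each direction of the tests between sexes and between diets, the genes named by the study, and the features of smallest p of each list. Of the tests between sexes and diets and of the lists only some are printed, picked after their values were seen. The members and lists were chosen with earlier results of these data known, and lists are given as counts and medians over genes without a test. Alternatives changed the filter, scaling, weights, arrays and spatial correction; grid correction, its combinations, and array weights without 1 mouse were added after seeing the data.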

Additional observations from a re-analysis of the deposited data

Results flagged for a closer look

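In each age group of CR mice the named genes were searched for a mouse far from the rest, by the gap to its neighbor as a share of the group's range. Of 116 gene and group pairs, 22 had such a mouse. For genes not picked by their values, chance gives about 1 in 20. These genes were picked by their values in the same arrays, so that rate is no measure for them. The pairs also share the same mice and are not independent. No difference between sexes or between diets passed its test.

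Old CR male replicate 3, an array of different profile, was the far mouse among old mice in 8 of them. The gap took a share of 0.694 of the range for Gpr22, 0.529 for Atxn1l, 0.531 for Ncaph, 0.62 for Cryab, 0.656 for Pdia3, 0.594 for Noct, 0.531 for Srfbp1 and 0.594 for Pkig. Young CR female replicate 4, the other such array, was far from the young mice for Cryab (0.763), Col3a1 (0.575), Pms2 (0.574), Syne2 (0.522), Noct (0.615), Igfbp4 (0.552), Srfbp1 (0.768) and Tgfbi (0.611).

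The other 6 flags came from arrays of the common profile. Old CR male replicate 1 stood apart for Bsdc1 (0.568; score 0.61) and Cenpl (0.607; score 0.67), and young CR male replicate 2 for Mbnl1 (0.507; score -0.04) and Cenpl (0.522; score 1.08). Young CR female replicate 2 stood apart for Ip6k2 (0.5; score 1.67) and old CR female replicate 3 for Psd3 (0.528; score 1.06).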

How the results depend on the processing

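The count of 0 features at an adjusted p under 0.05 held in the combined, male and female comparisons and in both tests of a difference (between the sexes, between the diets). It held under every alternative judged by adjusted p except array weights, and when each mouse was left out in turn (0 to 0). Array weights called 1074 features in the combined comparison, 1066 in males, 2 in females, 11 between the sexes and 1 between the diets. They gave old CR male replicate 2 a weight of 145, against 4.01 for the next array and a median of 1.26; with that mouse left out the weighted fit called 0 in the combined comparison. The methods' rule, without its final variance analysis, uses an unadjusted p and called 1 feature (Atxn1l), whose adjusted p was 0.997. The count of features at an unadjusted p under 0.05 was less stable: 6 in the combined comparison became 45 without the 8 arrays of different profile, 46 after grid correction, 48 with no filter, 303 with grid correction, a term for the 8 arrays, the replicate block and no filter, and 1 to 261 when a mouse was left out, the highest without old CR male replicate 1. Leaving out a mouse moved the count of 40 in males to 20 to 1010, 6 in females to 4 to 95, 53 between the sexes to 9 to 499 and 6 between the diets to 2 to 109; the highest was without old CR male replicate 1 except in females (young CR female replicate 5). With the 2 turned columns as deposited, the count was 1 in the combined comparison and 88 between the diets. A replicate block for the runs of title numbers called 0 features in each comparison (at an unadjusted p under 0.05, 38 in the combined one, 161 in males, 13 in females, 127 between the sexes and 38 between the diets). Deviations of 22 same-run pairs correlated at a median r of 0.257 (lowest -0.414, 13 above 0.1), against -0.07 for 85 pairs of other runs (32 above 0.1); the labels do not say what a run shares, so the runs were not taken as pairs.

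Signs of small differences turned under several alternatives, all without a call unless stated. With array weights these were Bsdc1 (-0.0748), C1qc (-0.0247) and Pkig (0.00814), and with array weights without old CR male replicate 2 C1qc (-0.015), Ccdc30 (0.000236), Wrn (0.00776) and Hsp90aa1 (0.052). Grid correction, with or without the filter, turned Zfp354a (0.00988), Tcea3 (0.023), Flvcr2 (0.019), Gja1 (0.0101), Gsta4 (0.00188), Uchl1 (0.00542) and Wrn (0.00242). Grid correction with the term, the block and no filter turned Zfp354a (0.0103), Tcea3 (0.0196), Flvcr2 (0.0012), Gja1 (0.0146), Gsta4 (0.00277), Uchl1 (0.031) and Hsp90aa1 (0.00306). The term for the 8 arrays turned Uchl1 (0.00501), and leaving them out Uchl1 (0.0192), Hsp90aa1 (0.032) and Aldh1a2 (0.00875). Hsp90aa1 turned with quantile normalization (0.0122), median centring (0.00684), position correction with or without the filter (0.0156), loess (0.0063) and loess with position correction (0.025), the latter also turning Tnc (-0.00343) and Ptn (-0.017). Median centring turned Aldh1a2 (1.29e-05), and averaging the features of a gene turned Rpl4 (-0.0189). With each mouse left out in turn, Uchl1 ran from -0.115 to 0.0545, Hsp90aa1 from -0.0732 to 0.0342, Aldh1a2 from -0.0638 to 0.0287, C1qc from -0.0173 to 0.0602, Cryab from -0.001 to 0.178 and Pkig from -0.167 to 0.0152. The cause was not tested.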
